A study of Mus musculus with 6 samples.

Results

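The genes described here make the contacts and the cytoskeleton that define an epithelial cell: the cadherin genes Cdh1 and Cdh2, the cell adhesion molecule gene Epcam, the claudin genes Cldn4, Cldn6 and Cldn7, the scaffold gene Tjp1 and the keratin genes Krt8, Krt18 and Krt19. They were chosen by symbol, and all 10 were found among the 49585 gene rows of the deposited count table. The libraries came from C57BL/6 mouse EpiLCs, epiblast-like cells in culture, taken 2 days after embryonic stem cells (ESCs), kept until then with LIF and the inhibitors CHIR99021 and PD0325901, were seeded on fibronectin. The induction medium held KSR at 1%, bFGF at 12 ng/mL and activin A at 20 ng/mL. The wild-type group (WT, libraries 01, 02 and 03) was compared with the group labelled Cables2-/- (hereafter knockout, KO, libraries 04, 05 and 06), 3 libraries each, to learn which transcripts differ when Cables2, whose product binds cyclin-dependent kinases, is missing. Whether replicate libraries stem from different cultures or clones is not stated in the labels, so the p-values speak of the spread among these libraries alone, and that spread may be technical.

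In an epithelium, classical cadherins on neighbouring cells bind each other in adherens junctions and hold the actin cytoskeleton through catenins, while claudins seal the space between cells in tight junctions and are tied to the cortex by scaffold proteins such as ZO-1. Keratins form intermediate filaments as obligate pairs of a type II and a type I chain, of which Krt8 with Krt18 or Krt19 is the pair of simple epithelia. The epiblast of the early mouse embryo is itself an epithelium that expresses E-cadherin, and its cells exchange E-cadherin for N-cadherin when they leave it during gastrulation.

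Library totals ran from 4234788 to 5206717 counts, and 11594 genes passed the filter on low counts, among them all 10 members. A total of 3 counts, used as a floor, corresponded to between 0.576 and 0.708 CPM (counts scaled to library size), and such floors cover counting error only. Cables2 had 111 to 121 counts in the WT libraries and 4 to 11 in the KO libraries (log2 fold change -4.16 ± 0.26, SE; adjusted p = 1.56e-23 by edgeR's quasi-likelihood F-test with Benjamini-Hochberg correction), so every library carried the level of its label. Of 11 tested EpiLC and pluripotency markers, 3 rose (Fgf5 by 1.17, Pou3f1 by 0.88 and Tdgf1 by 0.36 on the log2 scale). Another 3 fell (Nanog -1.68, Lin28a -0.20 and Dnmt3a -0.17). These were 27.3% each, beside 8.13% higher and 9.13% lower among all tested genes at an adjusted p under 0.05. The groups thus differed in these markers too, and the part of the markers in the results was not tested. Sox2, a further marker of these cells, had between 0 and 2 counts per library, so a low count in this table need not be a low level. The share of counts from mitochondrially encoded genes was 0.141% to 0.152% in WT and 0.204% to 0.243% in KO, and its part in the results was not tested.

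Of the 10 members, 3 rose in the KO (Cldn6, Cldn7 and Krt18) and 1 fell (Cdh1) at an adjusted p under 0.05. Over all tested genes, 8.13% rose and 9.13% fell by the same rule. The median log2 fold change was 0.06 over the members and 0.0088 over all tested genes. The KO libraries lay wholly above or below the WT libraries for 4 members (Cdh1, Cldn6, Tjp1 and Krt18), where 31.6% of all tested genes did so. Since the members were picked with earlier results known, these shares only describe them.

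**Figure D1:**
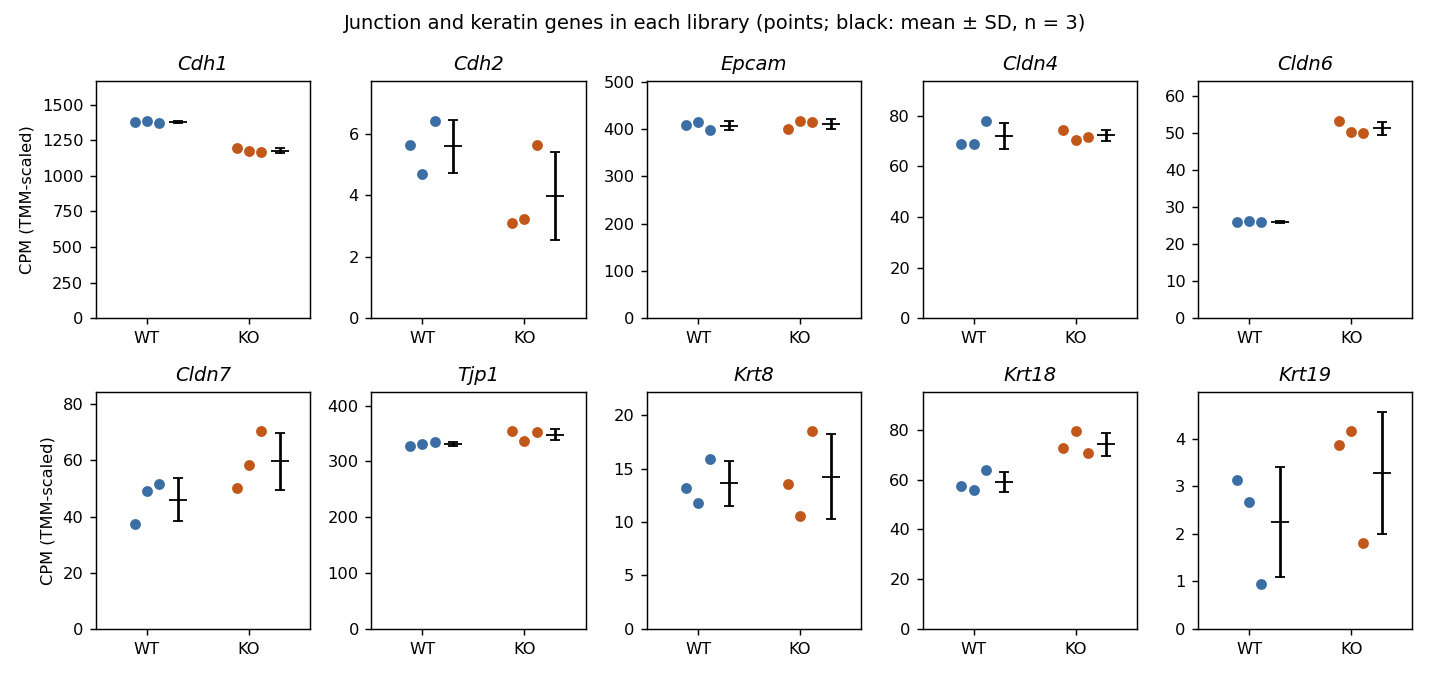
TMM-scaled CPM of each of the 10 genes in the 3 WT and 3 KO libraries, each panel with its own axis from 0; points are libraries and black marks are the mean ± SD (n = 3). Cldn6 rose from about 26.0 to 51.2 CPM with no overlap, Krt18 and Cdh1 also separated, and Cdh2, Krt8 and Krt19 scattered widely at low counts.

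Cldn6, a claudin gene of early embryonic epithelia, showed the largest called change of the set. It lies on chromosome 17 (ENSMUSG00000023906.3, 23679365 to 23682446, plus strand, mm10). WT libraries 01, 02 and 03 held 124, 118 and 109 of its counts, against 275, 266 and 222 for KO libraries 04, 05 and 06. All KO libraries were above all WT libraries, and the spread within each group was small. Cldn6 averaged 26.0 ± 0.215 CPM among WT libraries and 51.2 ± 1.84 CPM among KO libraries (SD, n = 3 each). Cldn6 in KO thus stood at 197% of its WT level (log2 fold change 0.98 ± 0.11, SE; adjusted p = 1.36e-10). In the 6 fits that left out 1 library the log2 fold change stayed between 0.94 and 0.99. Its signed fold in the authors' deposited table is 1.97. That table calls 3 members at a corrected p under 0.05 (Cdh1, Cldn6 and Krt18), beside 3.17% of all its rows.

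Cldn7, a claudin found at lateral membranes and in complex with Epcam, lies on chromosome 11 (ENSMUSG00000018569.12, 69964779 to 69967885, plus strand). It was at 37.2, 49.0 and 51.6 CPM in WT libraries 01, 02 and 03 and 50.3, 58.5 and 70.3 CPM in KO libraries 04, 05 and 06. KO library 04 lay below WT library 03, so the groups overlapped. The log2 fold change was 0.38 ± 0.11 (adjusted p = 0.00808). Leaving out WT library 01 (0.24, adjusted p = 0.15) ended the call, as did leaving out KO library 06 (0.25, adjusted p = 0.164) and the DESeq2 Wald test (adjusted p = 0.0669). For Cldn7 the corrected p in the authors' deposited table is 0.19, with a signed fold of 1.30.

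Cldn4, a claudin of many simple epithelia, lies on chromosome 5 (ENSMUSG00000047501.3, 134945119 to 134946934, minus strand). The WT libraries held 330, 309 and 328 of its counts and the KO libraries 383, 372 and 318. Scaled to library size, this is a mean of 71.9 ± 5.28 CPM for WT beside 72.1 ± 2.00 CPM for KO (SD, n = 3 each), with overlapping libraries. Its log2 fold change, 0.01 ± 0.09, did not pass (adjusted p = 0.971) and had a 95% interval from -0.16 to 0.17. The lower bound for Cldn6, 0.75, lay above that interval.

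Within the summed counts of the claudin members, the share of Cldn6 was higher in each KO library than in any WT library. Other tested claudin genes (Cldn3, Cldn5 and Cldn12) were left out of this sum. Cldn6 made up 19.6%, 18.2% and 16.7% of the summed counts of Cldn4, Cldn6 and Cldn7 in the WT libraries and 30.0%, 28.1% and 26.1% in the KO libraries. The groups did not overlap, and the difference was 9.87 percentage points (exact permutation test, two-sided, p = 0.1, the smallest that 3 libraries against 3 allow). A share within a library does not depend on how libraries were scaled. It draws on the same counts as the changes of Cldn6, Cldn7 and Cldn4 given above, so it is not separate evidence.

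Sequence around the annotated start was printed for the claudin and keratin genes to set members that rose beside relatives that did not pass the test. RefSeq promoter windows (GRCm38.p6, 250 bases before to 50 after a start) were found for 7 of the 10 members, with 8 windows in all, and none was used for Cdh1, Cdh2 or Krt19. Capitals mark matches on either strand to the E-box CAGGTG, bound by Snail and Zeb repressors, the cAMP response element TGACGTCA and the TATA box letters TATAAA. The windows are, in order, chr17:23679115-23679414 (plus strand), chr11:69964529-69964828 and chr11:69965171-69965470 (plus strand, both annotated starts of Cldn7), chr5:134946885-134947184 (minus strand), chr15:102027966-102028265 (plus strand) and chr15:102004293-102004592 (minus strand).
Cldn6: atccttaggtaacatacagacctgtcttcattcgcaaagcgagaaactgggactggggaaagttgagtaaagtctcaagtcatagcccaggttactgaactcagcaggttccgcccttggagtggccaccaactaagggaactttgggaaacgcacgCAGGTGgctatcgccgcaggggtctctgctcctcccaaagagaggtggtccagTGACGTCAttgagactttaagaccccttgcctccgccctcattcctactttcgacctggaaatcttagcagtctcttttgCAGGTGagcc
Cldn7 first start: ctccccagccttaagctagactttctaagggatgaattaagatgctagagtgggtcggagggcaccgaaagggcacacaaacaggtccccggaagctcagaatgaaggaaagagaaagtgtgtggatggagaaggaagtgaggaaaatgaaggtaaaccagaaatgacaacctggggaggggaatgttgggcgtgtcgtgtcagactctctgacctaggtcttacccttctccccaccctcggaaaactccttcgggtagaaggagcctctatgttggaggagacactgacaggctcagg
Cldn7 second start: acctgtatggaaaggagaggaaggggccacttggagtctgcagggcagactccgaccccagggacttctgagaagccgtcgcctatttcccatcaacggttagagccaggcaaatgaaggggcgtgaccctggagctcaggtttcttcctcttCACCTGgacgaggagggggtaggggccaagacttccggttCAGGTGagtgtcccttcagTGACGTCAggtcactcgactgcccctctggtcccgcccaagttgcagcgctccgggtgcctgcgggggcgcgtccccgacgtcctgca
Cldn4: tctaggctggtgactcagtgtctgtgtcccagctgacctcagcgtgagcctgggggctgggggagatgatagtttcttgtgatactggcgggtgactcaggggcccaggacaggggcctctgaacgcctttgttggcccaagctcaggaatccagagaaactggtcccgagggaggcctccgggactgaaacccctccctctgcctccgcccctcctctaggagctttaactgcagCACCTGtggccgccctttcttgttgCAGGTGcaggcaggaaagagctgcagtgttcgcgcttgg
Krt18: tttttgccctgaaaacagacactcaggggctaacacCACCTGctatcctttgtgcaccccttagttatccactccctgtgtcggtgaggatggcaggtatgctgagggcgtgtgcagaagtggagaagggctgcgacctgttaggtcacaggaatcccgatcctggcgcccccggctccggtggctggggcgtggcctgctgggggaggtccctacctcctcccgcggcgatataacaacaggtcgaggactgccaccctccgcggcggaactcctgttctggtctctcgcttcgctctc
Krt8: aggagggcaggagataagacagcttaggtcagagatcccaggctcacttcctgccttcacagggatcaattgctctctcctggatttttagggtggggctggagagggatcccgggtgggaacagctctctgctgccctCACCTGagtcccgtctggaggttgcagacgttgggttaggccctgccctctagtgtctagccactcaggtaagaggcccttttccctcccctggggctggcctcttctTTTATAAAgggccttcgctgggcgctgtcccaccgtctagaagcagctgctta

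The E-box letters stood 2 times each in the windows of Cldn6, Cldn4, Epcam and the second start of Cldn7, 1 time each in those of Krt8 and Krt18, and in neither the first Cldn7 window nor that of Tjp1. Among all 32851 promoter windows 20.2% held them. The letters of the cAMP response element stood in the Cldn6 window, beginning 40 bases before the start, and in the second Cldn7 window, beginning 38 bases before it. They were searched after these windows had been read, and 1.79% of all windows held them. The Krt8 window alone of the 8 held TATAAA, in an overlapping match on each strand at the annotated start (13.6% of all windows). The Grainyhead core AACNNGTT was in none of the 8 windows and in 4.2% of all. Counts per gene do not tell from which start a transcript came, and a match of letters is not evidence of binding.

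Tjp1, which encodes the tight junction scaffold ZO-1, lies on chromosome 7 (ENSMUSG00000030516.14, 65296165 to 65527781, minus strand). It had 327, 331 and 335 CPM in WT and 354, 336 and 352 CPM in KO. Each KO library was above each WT library, by less than 1 CPM in the nearest pair, KO library 05 and WT library 03. The log2 fold change of 0.07 ± 0.05 did not pass the test (adjusted p = 0.389). Epcam, a homotypic adhesion molecule of epithelia, lies on chromosome 17 (ENSMUSG00000045394.9, 87635979 to 87651106, plus strand) and averaged 407 ± 9.04 CPM among WT libraries beside 411 ± 9.84 CPM among KO libraries (SD, n = 3 each). Its libraries overlapped, and a log2 fold change of 0.01 ± 0.05 did not pass (adjusted p = 0.897), with a 95% interval from -0.08 to 0.11.

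Cdh1, which encodes E-cadherin, was the most abundant member and the only one that fell. It lies on chromosome 8 (ENSMUSG00000000303.12, 106603351 to 106670246, plus strand). Its level was 1381, 1388 and 1373 CPM in WT libraries 01, 02 and 03 and 1195, 1171 and 1166 CPM in KO libraries 04, 05 and 06. The groups were far apart relative to their spread, and KO stood at 85.3% of WT (log2 fold change -0.23 ± 0.04, adjusted p = 1.17e-05). It stayed between -0.24 and -0.22 when any 1 library was left out.

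Most genes of chromosome 8 were lower in the same KO libraries. The 647 tested genes of that chromosome had a median log2 fold change of -0.21, and 34.5% of them were called lower. Chromosome 6 behaved alike, with a median of -0.25 over 537 genes, whereas the medians of the other autosomes and the X chromosome lay between -0.01 and 0.05. Summed over the tested chromosome 8 genes other than Cdh1, the level was 56244 to 56531 CPM in WT and 48463 to 49612 CPM in KO. Of the chromosome 8 genes, 300 had a lower log2 fold change than Cdh1, so Cdh1 stood near the middle of its chromosome.

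When each chromosome was scaled to its own genes, an alternative chosen after seeing the data, Cdh1 stood at -0.02 ± 0.04 on the log2 scale (adjusted p = 0.781). The fall of Cdh1 and that of its chromosome cannot be told apart in these libraries. In that fit, 3 members were called higher, against 7.36% of all tested genes, and 0 lower, against 6.93%. In it 0 members were lower even at an unadjusted p under 0.05. Cldn6 kept 0.95 ± 0.11 (adjusted p = 3.6e-10), Cldn7 0.34 ± 0.11 (adjusted p = 0.0263) and Krt18 0.30 ± 0.09 (adjusted p = 0.0107). The medians of their chromosomes 17, 11 and 15 were each 0.04.

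**Figure D2:**
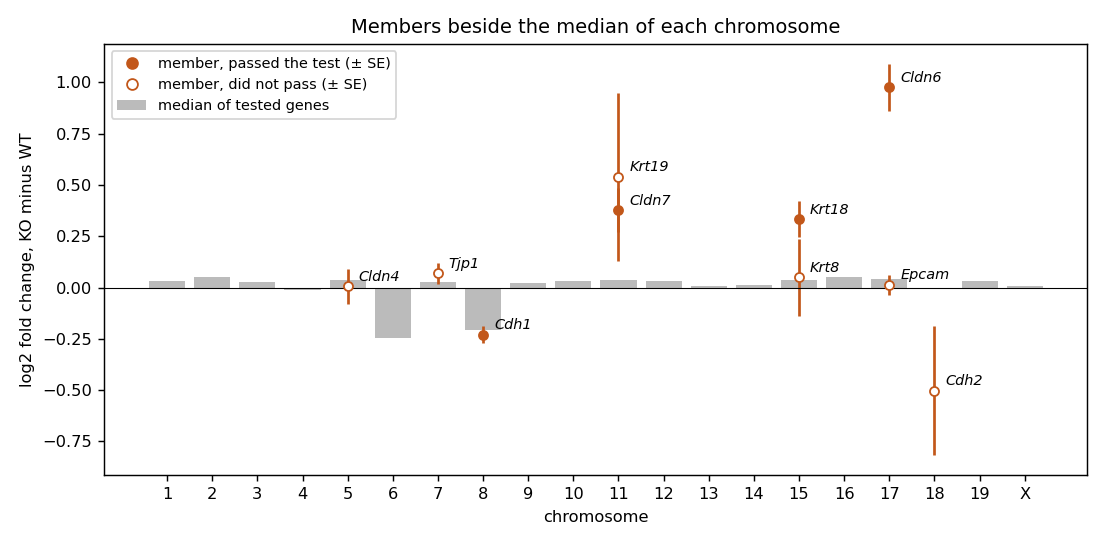
Log2 fold change (KO minus WT) of the 10 genes (points ± SE; filled where adjusted p under 0.05) above the chromosome that carries each, with grey bars for the median of all tested genes of that chromosome. Chromosomes 6 (-0.25) and 8 (-0.21) stand below 0, and Cdh1 (-0.23) lies at the bar of chromosome 8.

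**Figure D3:**
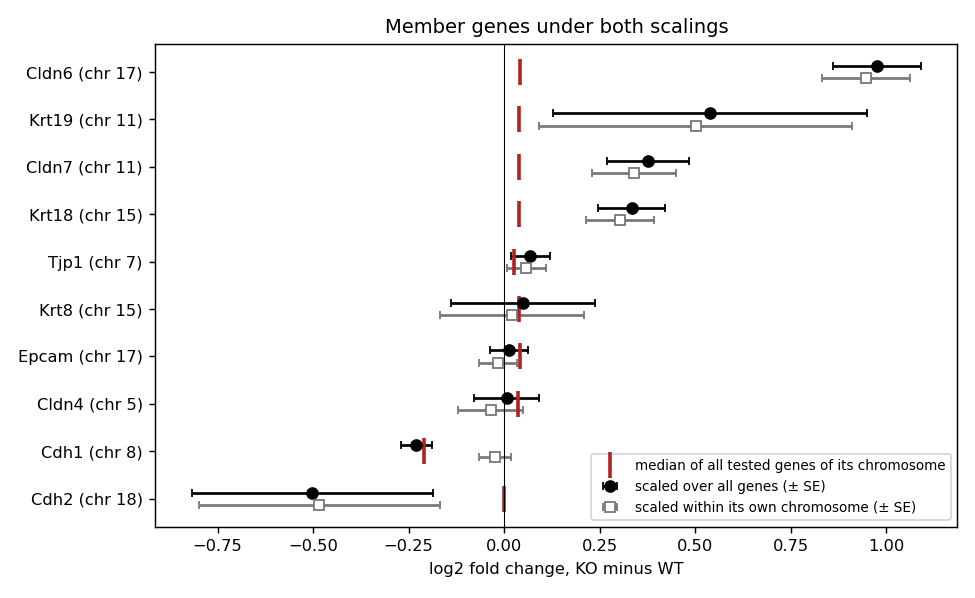
Log2 fold change (KO minus WT, ± SE) of each gene with libraries scaled over all genes (black circles) or within the gene's own chromosome (open squares), with the chromosome median as a red mark. Cdh1 moved from -0.23 to -0.02, and Cldn6, Cldn7 and Krt18 stayed above 0.

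Cdh2, the N-cadherin gene that rises in cells leaving the epiblast, had few counts. It lies on chromosome 18 (ENSMUSG00000024304.14, 16588877 to 16809246, minus strand) and was seen with 27, 21 and 27 counts in the WT libraries, against 16, 17 and 25 in the KO libraries. KO library 06 lay within the WT range while the other KO libraries were below it. The log2 fold change was -0.50 ± 0.32 (adjusted p = 0.294), with a 95% interval from -1.12 to 0.12. The ratio of Cdh1 to Cdh2 counts was 252 ± 41.9 in WT and 319 ± 97.4 in KO (SD, n = 3 each). The groups overlapped (exact permutation test, two-sided, p = 0.4, where 0.1 is the smallest that this design allows). For Cdh2, as for Krt8, the deposited RPKM were not proportional to the counts across libraries, so its counts may not hold all of its reads.

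Krt18, the type I keratin of simple epithelia, rose in the KO. It lies on chromosome 15 (ENSMUSG00000023043.7, 102028216 to 102032026, plus strand). It had 57.6, 55.9 and 63.7 CPM in WT libraries 01, 02 and 03 and 72.6, 79.5 and 70.8 CPM in KO libraries 04, 05 and 06. All KO libraries were above all WT libraries. KO stood at 126% of WT (log2 fold change 0.33 ± 0.09, adjusted p = 0.00377). It passed in each of the 6 fits without 1 library, with the largest adjusted p, 0.046, without KO library 05. Its signed fold in the authors' deposited table is 1.26.

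Krt8, the type II partner of Krt18, lies on the same chromosome (ENSMUSG00000049382.10, 101996711 to 102004342, minus strand), with 23697 bases between the annotated genes. The WT libraries held 63, 53 and 67 of its counts and the KO libraries 70, 56 and 82. KO library 05 was below and KO library 06 above the WT range in CPM, and the log2 fold change was 0.05 ± 0.19 (adjusted p = 0.9), with a 95% interval from -0.32 to 0.42. Krt19, a type I keratin that lacks the tail domain of other keratins, lies on chromosome 11 (ENSMUSG00000020911.14, 100140810 to 100148665, minus strand). The WT libraries held 15, 12 and 4 of its counts and the KO libraries 20, 22 and 8, so the groups overlapped. At a log2 fold change of 0.54 ± 0.41 it did not pass (adjusted p = 0.409).

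Reads of the keratin pair are the least specific of the set. Of the 36-base windows of the Krt8 transcript, the length of a read, 33.9% also occur in transcripts of 3 other genes, chiefly the pseudogene Krt8-ps. This share was 6.42% for Krt18 and at most 0.205% for the other 8 members. Krt8-ps itself was listed at 0 counts in all libraries, and how reads that fit several places were counted is not stated in the labels, so the level of Krt8 is uncertain. The antisense gene model Gm36026 overlaps exons of Krt8, and without knowledge of strand in the counting its reads and those of Krt8 cannot be told apart.

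The count ratio within the keratin pair varied between KO libraries. It rests on 53 to 82 Krt8 counts per library, so counting error and the uncertain level of Krt8 limit it. Krt8 counts divided by Krt18 counts gave 0.228, 0.211 and 0.25 for the WT libraries and 0.187, 0.133 and 0.261 for KO libraries 04, 05 and 06. KO library 06 lay above all WT libraries and the other KO libraries below them. The means were 0.230 ± 0.0195 in WT and 0.194 ± 0.0642 in KO (SD, n = 3 each; exact permutation test, two-sided, p = 0.5).

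**Figure D4:**
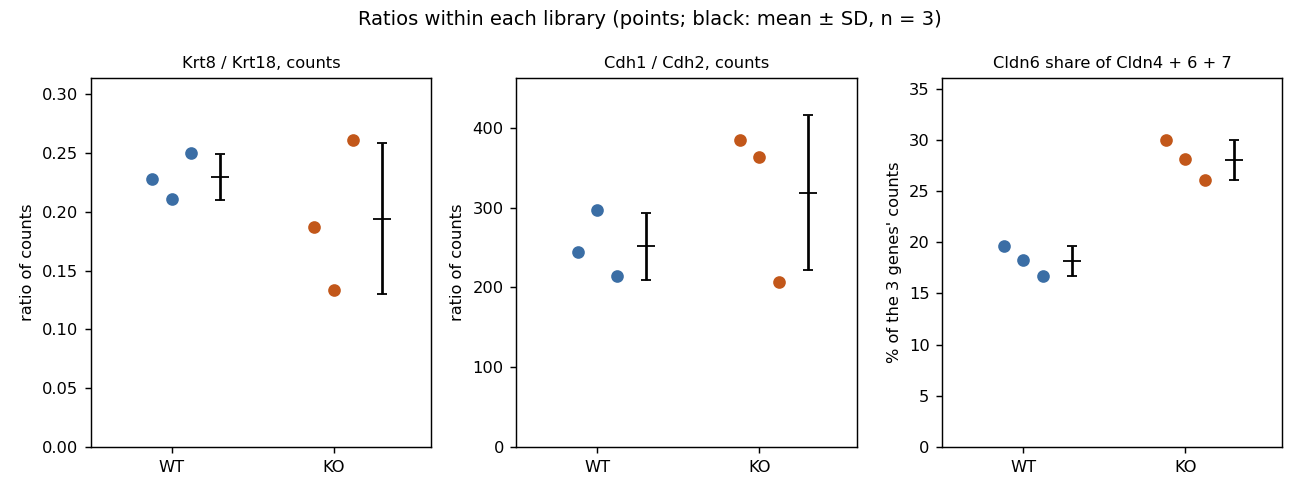
Ratios within each library (points; black marks are mean ± SD, n = 3): Krt8 over Krt18 counts, Cdh1 over Cdh2 counts, and the percentage of Cldn6 in the summed counts of Cldn4, Cldn6 and Cldn7, all on axes from 0. The keratin and cadherin ratios overlap between groups, and the Cldn6 share is 16.7% to 19.6% in WT against 26.1% to 30.0% in KO.

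Levels per length, as CPM per kilobase of annotated exon, order the members within a group. In WT the order by this level was Cdh1 (302 ± 1.69), Epcam (185 ± 4.12), Tjp1 (42.4 ± 0.509), Krt18 (41.1 ± 2.86), Cldn4 (39.6 ± 2.91), Cldn7 (23.6 ± 3.95), Cldn6 (15.1 ± 0.125), Krt8 (6.96 ± 1.08), Krt19 (1.21 ± 0.62) and Cdh2 (0.692 ± 0.108), with SD over 3 libraries. Neighbours whose libraries overlapped were Tjp1 with Krt18, Krt18 with Cldn4, and Krt19 with Cdh2. In KO, Krt18 stood above Tjp1 at 51.7 ± 3.19 against 44.5 ± 1.25 CPM per kilobase without overlap. Cldn6 there reached 29.8 ± 1.07 CPM per kilobase, within the range of Cldn7 at 30.6 ± 5.18, whereas in WT no library had as much Cldn6 as Cldn7. The exon length takes in all annotated isoforms, so levels of genes with many isoforms are understated. For Cldn7 it was 1948 bases, where its longest protein-coding transcript has 1335, and for Cldn6 1721 against 1622. For Tjp1 it was 7811 against 7049, and for Krt18 both were 1437. The overlap of Cldn6 with Cldn7 in KO and the gap between Krt18 and Tjp1 there thus depend on the length used.

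The 3 tested genes whose centred log2 CPM over the 6 libraries lay nearest to Cldn6 were Ptpn14, Wdr35 and Cpne2, at Euclidean distances of 0.08, 0.09 and 0.14. Ptpn14, a tyrosine phosphatase gene, was at 204, 219 and 210 CPM in the WT libraries, against 411, 395 and 396 CPM in the KO libraries. Nearest to Cdh1 were Slc20a2 and Bcar1, both on chromosome 8, and Lin28a on chromosome 4, each at a distance of 0.04.

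Other genes were read from 9 lists with 158 symbols, of which 99 genes passed the filter. The lists cover cell junctions, keratins, polarity, Epcam partners and surface proteases, epithelial regulators, and mesenchymal regulators and markers. Among them 8 rose (8.08%) and 17 fell (17.2%), with a median log2 fold change of 0.01, beside 8.13% and 9.13% of all tested genes. Krt12 and Acta2, counted among those that rose, passed the filter through their KO libraries alone. The epithelial and mesenchymal lists supplied Klf4, Klf5, Tcf4 and Fn1 to those that fell and Grhl2, Mmp2 and Acta2 to those that rose. The pooled shares are thus not those of junction genes alone. Of the 99, 10 lie on chromosomes 6 or 8, and these include 4 of the 17 that fell and 1 of the 8 that rose. Of all tested genes on chromosomes 6 and 8, 35.8% and 34.5% were called lower and 1.12% and 2.01% higher. The part of these chromosomes in the shares of the lists was not tested. With each chromosome scaled to its own genes, 10 rose and 15 fell, beside 7.36% and 6.93% of all tested genes in that fit.

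In the adherens junction list 0 of 16 tested genes rose and 4 fell (25%) with edgeR, beside 8.13% and 9.13% of all tested genes. In this list 1 rose when libraries were scaled by size alone or by upper quartile. At an unadjusted p under 0.05 it was 1 that was higher, and DESeq2 called 0 higher. Cdh3, the P-cadherin gene that lies 46053 bases from Cdh1 on chromosome 8, fell from 172 ± 5.42 to 134 ± 9.44 CPM (SD, n = 3 each). Its log2 fold change was -0.36 ± 0.06 (adjusted p = 7.78e-06), with -0.16 ± 0.06 (adjusted p = 0.0866) when scaled within chromosome 8. Ctnna1, the alpha-catenin gene that links cadherins to actin, fell by 0.26 on the log2 scale (SE 0.05, adjusted p = 5.98e-05). Jup (plakoglobin, -0.28) and Shroom3 (an apical constriction gene, -0.19) were the other genes that fell, named here after their values were seen. Ctnnb1, which encodes beta-catenin, stood at 0.04 ± 0.05 on the log2 scale and did not pass (adjusted p = 0.607).

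Of 18 other tight junction genes 2 rose and 2 fell (11.1% each, near the 8.13% and 9.13% of all tested genes). Tjp3, a scaffold related to ZO-1, rose from 25.7 ± 2.74 to 37.1 ± 4.07 CPM (0.54 ± 0.13, adjusted p = 0.000972). Cldn5, known from endothelium, went from 15, 16 and 19 counts in the WT libraries to 36, 38 and 24 in the KO libraries (0.82 ± 0.30, adjusted p = 0.0481). Its call was lost when WT library 01 or 02 or KO library 04 or 05 was left out (adjusted p between 0.119 and 0.167). Cldn12 fell (-0.38 ± 0.12, adjusted p = 0.017), a call lost by leaving out WT library 02 (adjusted p = 0.068) or KO library 04 (0.109). Ybx3, a junction-associated nucleic acid binding protein gene on chromosome 6, fell by 0.17 on the log2 scale (SE 0.04, adjusted p = 0.00255), was 0.10 above 0 when scaled within chromosome 6, and lost its call without KO library 05 (adjusted p = 0.0615). Leaving out WT library 01 or 02 or KO library 04 or 05 left 1 gene that rose, and leaving out WT library 02 or KO library 04 or 05 left 1 that fell. Of the other claudin genes listed, 11 stayed below the filter, none above 11 counts in a library, and Cldn3, at 0.11 ± 0.17 on the log2 scale, did not pass (adjusted p = 0.715).

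Of 9 desmosome genes 1 rose (11.1%, near the 8.13% of all tested genes). This was Perp, which encodes a tetraspan desmosome protein that is also a p53 target. The WT libraries held 38, 56 and 37 of its counts, beside 103, 96 and 92 for KO (1.01 ± 0.18, adjusted p = 1.48e-05). Leaving out WT library 03 or KO library 05 made it 2 that rose, as did scaling by library size alone or by upper quartile. Dsp, which encodes desmoplakin, stood at 0.51 ± 0.19 on the log2 scale and did not pass (adjusted p = 0.0552). Of 4 other keratin genes tested 1 rose (25%, beside 8.13% of all tested genes). This was Krt12, with 3, 3 and 5 counts among WT libraries and 18, 19 and 14 among KO libraries (2.03 ± 0.50, adjusted p = 0.00147). Its WT counts lie near the floor, so the size of the fold is uncertain. Krt12 passed the low-count filter through its KO libraries alone, so a fall could not have been called. Of 5 gap junction genes 0 rose and 0 fell with edgeR or DESeq2, 0 being higher and 0 lower at an unadjusted p under 0.05 in edgeR, and 1 fell without WT library 01. Over all tested genes edgeR called 8.13% higher and 9.13% lower, so 0 of 5 says little about this list. Gja1, the most abundant of them, had -0.03 ± 0.05 (adjusted p = 0.75).

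Among Epcam partners and surface proteases, 1 of 8 tested genes rose (12.5%) and 2 fell (25%), beside 8.13% and 9.13% of all tested genes. Without WT library 03, 3 of this list rose, where the same fit called 801 of 11896 tested genes higher. With all libraries, 5 of the 8 were higher and 2 lower at an unadjusted p under 0.05 in edgeR. The median log2 fold change of the list was 0.25, beside 0.0088 over all tested genes. St14, the matriptase gene whose protease cleaves Epcam, rose from 110 ± 3.26 to 158 ± 3.57 CPM (0.52 ± 0.07, adjusted p = 1.97e-09). The tetraspanin gene Cd9 on chromosome 6 fell by 0.66 on the log2 scale (SE 0.11, adjusted p = 2.23e-06), and its value within that chromosome was -0.39 ± 0.11 (adjusted p = 0.00736). Ephb4, grouped here by its list alone and not as a known Epcam partner, fell too (-0.32 ± 0.08, adjusted p = 0.00126). Spint1 and Spint2, which encode inhibitors of matriptase, did not pass (log2 fold changes of 0.18 ± 0.08 and 0.14 ± 0.07, adjusted p = 0.122 and 0.135).

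Apical polarity genes held 5 that fell (25%) and 0 that rose out of 20 with edgeR, beside 9.13% and 8.13% of all tested genes. In this list 1 rose when libraries were scaled by size alone, by upper quartile or within each chromosome. At an unadjusted p under 0.05 the number higher was 2, and DESeq2 called 0 higher. Prkcz, an atypical protein kinase C gene, fell by 0.59 (SE 0.14, adjusted p = 0.000681) and Llgl2, a basolateral Lgl gene, by 0.36 (SE 0.07, adjusted p = 2.32e-05) on the log2 scale. The others that fell, named after their values were seen, were Pard6a on chromosome 8 (-0.50 ± 0.18, adjusted p = 0.0449), Llgl1 (-0.26) and Scrib (-0.18). With scaling within each chromosome 4 of the list fell, beside 6.93% of all tested genes in that fit. Leaving out WT library 01 or KO library 06 left 3 that fell, and 1 rose without KO library 05 or 06.

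Among regulators of the epithelial state, 1 of 10 rose (10%) and 2 fell (20%), beside 8.13% and 9.13% of all tested genes. With scaling within each chromosome 2 of these regulators rose, beside 7.36% of all tested genes in that fit. Grhl2, a Grainyhead-like factor that activates Cdh1 and Cldn4 in other mouse epithelia, rose from 45.1 ± 2.97 to 61.7 ± 3.59 CPM (0.45 ± 0.10, adjusted p = 0.000276). Klf4 (-1.01 ± 0.20, adjusted p = 6.92e-05) and Klf5 (-0.47 ± 0.09, adjusted p = 4.65e-05), which also belong to naive pluripotency, fell. Of 9 mesenchymal regulators and markers 2 rose and 2 fell (22.2% each, beside 8.13% and 9.13% of all tested genes). Mmp2, a matrix protease gene on chromosome 8, rose (0.44 ± 0.11, adjusted p = 0.00278), and Acta2 rose from 4 to 7 counts in WT to 14 to 17 in KO (1.40 ± 0.46, adjusted p = 0.0262). Acta2 passed the low-count filter through its KO libraries alone, so a fall could not have been called. Fn1, the fibronectin gene (-0.25 ± 0.05, adjusted p = 0.000166), and Tcf4 (-0.39 ± 0.11, adjusted p = 0.00546) fell. Acta2 lost its call when WT library 01, WT library 03, KO library 05 or KO library 06 was left out (adjusted p between 0.0714 and 0.103), which left 1 that rose. Tcf4 lost its call in the absence of WT library 01 (0.075) or KO library 06 (0.0636), which left 1 that fell. Snai1 and Snai2 had at most 6 and 7 counts in any library and were not tested, and Zeb1, a repressor of Cdh1, had -0.55 ± 0.22 (adjusted p = 0.0639).

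**Figure D5:**
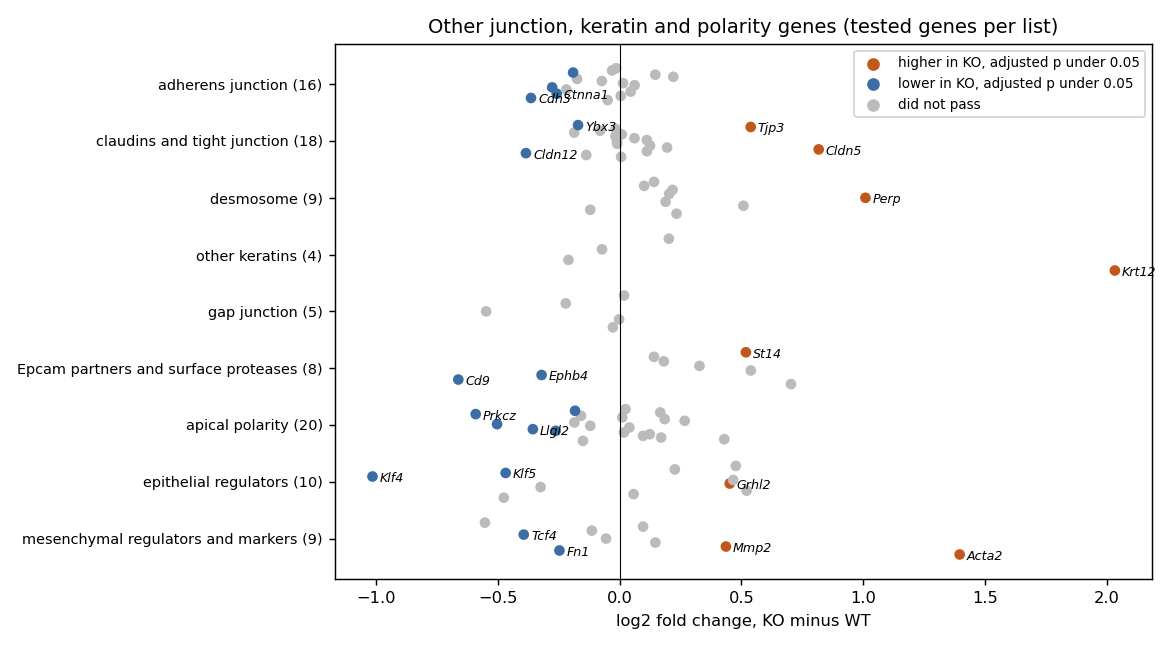
Log2 fold change (KO minus WT) of the tested genes of the 9 lists, 1 row per list with its number of tested genes; orange and blue mark genes higher and lower in KO at an adjusted p under 0.05, grey the rest, and names follow a fixed rule. Perp, Cldn5, Krt12 and Acta2 stand farthest to the right and Klf4 farthest to the left. Krt12 and Acta2 passed the low-count filter through their KO libraries alone. The adherens junction and polarity rows hold called genes on the left side alone (with 1 on the right in each under scaling by library size alone).

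Markers of other epithelia and of fibroblasts were summed for each library. The 12 trophoblast markers summed to 18.5 to 22.8 CPM in WT and 17.0 to 24.3 CPM in KO, with 5 of them at 0 in all libraries (Elf5, Plac1, Psg17, Prl3d1 and Tpbpa). Of the 3 that were tested, edgeR and DESeq2 called 0, and 0 was higher and 1 lower at an unadjusted p under 0.05 in edgeR. The lower one, Gata3, passed the low-count filter through its WT libraries alone, so a rise could not have been called. The 14 markers of primitive and visceral endoderm summed to 32.8 to 36.4 CPM in WT and 25.0 to 34.7 CPM in KO, with Afp at 0. Of the 4 tested, 1 was called lower, Gata4. It too passed the filter through its WT libraries alone. The 12 fibroblast markers summed to 62.6 to 66.8 CPM in WT and 72.6 to 84.2 CPM in KO, with Lum, Postn and S100a4 at 0 and 1 called higher, Col5a1. DESeq2 called 0 of the tested endoderm and fibroblast markers. Over all tested genes edgeR called 8.13% higher and 9.13% lower. The fibroblast sums did not overlap between groups and moved with Cldn6 and Krt18, and their part in those results was not tested. In bulk libraries, more cells of a type and more RNA per cell cannot be told apart.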

How the data were processed

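RNA of 6 mouse EpiLC libraries (3 WT, 3 KO) was read in pairs of 36 bases from a directional library with ribosomal RNA removed, per the labels' protocols. The authors deposited whole-number read counts per gene, not normalized, as headers and values show. From the authors' own test, p-values, their FDR correction and a signed fold are used where named, per the file headers. The submitters' processing notes name mm10 and edgeR. Aligner, counting settings and annotation are not stated there. Another 18 per-library columns give no value printed here. A limma test on the RPKM among them was run first and then set aside, since columns without a sample's name were limited to 1 measure per group. It called Cldn6 and Krt18 but neither Cdh1 nor Cldn7.

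Columns carry a library number but no replicate number, and were assigned to groups by name. Within a group, any pair of libraries differed beyond sampling noise (chi-square per degree of freedom from 1.71 to 2.62). Genes passing filterByExpr were scaled with TMM factors (0.987 to 1.02) and tested with edgeR 4.0.16 (robust quasi-likelihood, group as the only term) over all 11594 genes, with Benjamini-Hochberg adjustment and a threshold of 0.05. CPM use TMM-corrected library sizes, and SE is the size of the log2 fold change divided by the root of F. The 95% intervals are normal approximations from the SE. Alternatives were other scalings and filters, DESeq2 1.42.0 and leaving out each library. The edgeR, DESeq2 and within-chromosome fits were tested on simulated data with independent replicates and the same dispersion for all genes. That setting does not copy the spread of these libraries, which may be technical. Shared windows, exon lengths, gene IDs and strands come from GENCODE M21, and coordinates from the table, counted from 1.

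The members and lists were chosen with earlier results of these data known. The rule for names takes all members, up to 2 higher and 2 lower called genes of smallest adjusted p per list, and the 3 tested genes nearest to the called members of largest rise and fall (a mean of at least 10 CPM was asked of these members, not of their neighbours). Further list genes are given for context.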

Additional observations from a re-analysis of the deposited data

How the results depend on the processing

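Across 13 alternatives, Cldn6 and Krt18 stayed higher and called in each one. Cdh1 lost its call with TMM factors within each chromosome (-0.02, adjusted p = 0.781), so that 0 members were called lower there, and kept it in the other 12, all of them on counts. The number of members called higher lay between 2 and 3 when 1 library was left out, and 1 was called lower each time. The DESeq2 Wald test called 561 genes higher and 680 lower, against 943 and 1059 with edgeR. Ybx3 reversed from -0.17 to 0.10 with factors within each chromosome, where it was not called (adjusted p = 0.138), and Cdh3 (0.0866) and Cldn5 (0.0831) lost their calls there. Cldn5 also lost its call with no low-count filter (0.0704), a CPM filter (0.05) and DESeq2 (0.16), Acta2 with no filter (0.0513) and DESeq2 (0.108), and Cldn12 and Fn1 with DESeq2 (0.0681 and 0.0801). Without 1 library, 719 to 823 genes were called higher and 820 to 923 lower, and 6 to 10 and 15 to 17 in the other lists. The Cldn6 share then differed by 8.90 to 10.9 percentage points, and the log2 ratios of Krt8 to Krt18 and of Cdh1 to Cdh2 by -0.54 to -0.05 and by 0.14 to 0.59. The causes of these shifts were not tested. No paired analysis was possible because the count columns carry no replicate number of the labels. Cdh2 and Krt19 had at most 27 and 22 counts in a library, which limits the precision of their values.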

Other observations

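The chromosome 8 genes of the other lists did not all follow their chromosome. Esrp2, an epithelial splicing factor gene, had a log2 fold change of 0.52 ± 0.25 that did not pass over all genes (adjusted p = 0.155), and 0.73 ± 0.25 with scaling within chromosome 8 (adjusted p = 0.0402). Mmp2 moved from 0.44 to 0.64 ± 0.11 (adjusted p = 8.82e-06). Both were looked at after their values were seen.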
